A study of Homo sapiens with 6 samples.

Results

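The genes described here are the subunits of oxidative phosphorylation, 103 of the 19977 genes in the count tables. They were chosen by symbol alone: NDUF genes of the A, B, C, S and V series, the SDH subunits, UQCR genes and CYC1, COX genes of the 4 to 8 series, ATP5 genes, and the protein-coding genes of the mitochondrial genome. Of the 103, 90 lie in the nuclear genome (37 of complex I, 4 of complex II, 10 of complex III, 19 of complex IV and 20 of complex V) and 13 in the mitochondrial genome (7 of complex I, 1 of complex III, 3 of complex IV and 2 of complex V). NDUFA4 and NDUFA4L2 were counted with complex IV. The cells were NCRM-1, an iPSC line labelled wild type, grown as aggregates in vertical wheel bioreactors for 4 days. The cultures started from single cells in E8 with ROCK inhibitor, and 50% of the medium was replaced on day 2. In 3 libraries (PEG and HS) the E8 held 10 mg/ml polyethylene glycol and 0.1 µg/ml heparin sodium salt, and 3 libraries came from E8 alone (E8 control). The design asks whether the supplemented medium changed the cells beside its effect on aggregates. The labels describe the supplemented medium in the protocol text of all 6 libraries, but their treatment field gives Control for 3, and this field was followed.

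Oxidative phosphorylation passes electrons from NADH (complex I) and succinate (complex II) through complex III and cytochrome c to oxygen at complex IV, and the proton gradient built on the way drives ATP synthase (complex V). Complexes I, III, IV and V are mosaics whose core membrane subunits are encoded by mitochondrial DNA and the rest by nuclear genes, whereas all subunits of complex II are nuclear. Pluripotent cells are known for a high rate of glycolysis, and a greater use of respiration is a known feature of their differentiation.

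The libraries held 26991279 to 36185138 counts, and 16505 genes with 10 or more counts in all were tested. Levels are given as CPM, a library's counts for a gene relative to its total, after scaling with edgeR's TMM factors, and are not corrected for gene length unless a level per kb is stated. Log2 fold changes are above 0 where PEG and HS had the higher level, SE is the standard error of such a value, and a gene was called at an adjusted p under 0.05 (edgeR's quasi-likelihood test, Benjamini-Hochberg adjustment over all genes tested). The spread between libraries of one medium was small (common biological coefficient of variation 3.12%), so differences of a few percent can pass the test. The sample labels read as 1 bioreactor for each medium. Vessel and medium then cannot be told apart, and p-values measure the spread between samples that may come from one vessel. Genes of pluripotent cells (POU5F1, NANOG, SOX2 and 6 others) were all over 1 CPM in both media. All 8 neuroectoderm markers fell in PEG and HS, with a summed level of 572 to 611 CPM against 786 to 818 CPM, and the part of this shift in the results below was not tested. PEG and HS library 3 stood apart in the share of counts from mitochondrial genes, 4.54% against 5.0% to 5.16% in the other 5 libraries. In bulk samples a lower level in each cell cannot be told apart from fewer cells that carry the transcript.

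Subunit transcripts were slightly lower in PEG and HS in many members, and none was called higher. Of the 98 members tested, 22 fell (22.4%) and 0 rose, while over all genes tested 25.3% were called, 12.2% higher and 13.1% lower. With edgeR 1 member was higher at an unadjusted p under 0.05, SDHA, and DESeq2 gave 20 lower and 0 higher members and limma-voom 23 and 0. The total share of calls among members was therefore near that of all genes. Of the 98 log2 fold changes 77 lay below 0, against 49.1% over all genes. The median log2 fold change was -0.06 over the members and 0.00 over all genes tested. Of the mitochondrially encoded members 8 of 13 fell (61.5%), and of the nuclear members 14 of 85 (16.5%). The difference between these shares was not tested. A difference of over 10% in either direction was found for 11 of 98 members (11.2%), against 45.6% of all genes, 25.8% of those at 20 CPM or more and 18.5% of those at 20 CPM or more with a transcript under 1000 bases.

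**Figure D1:**
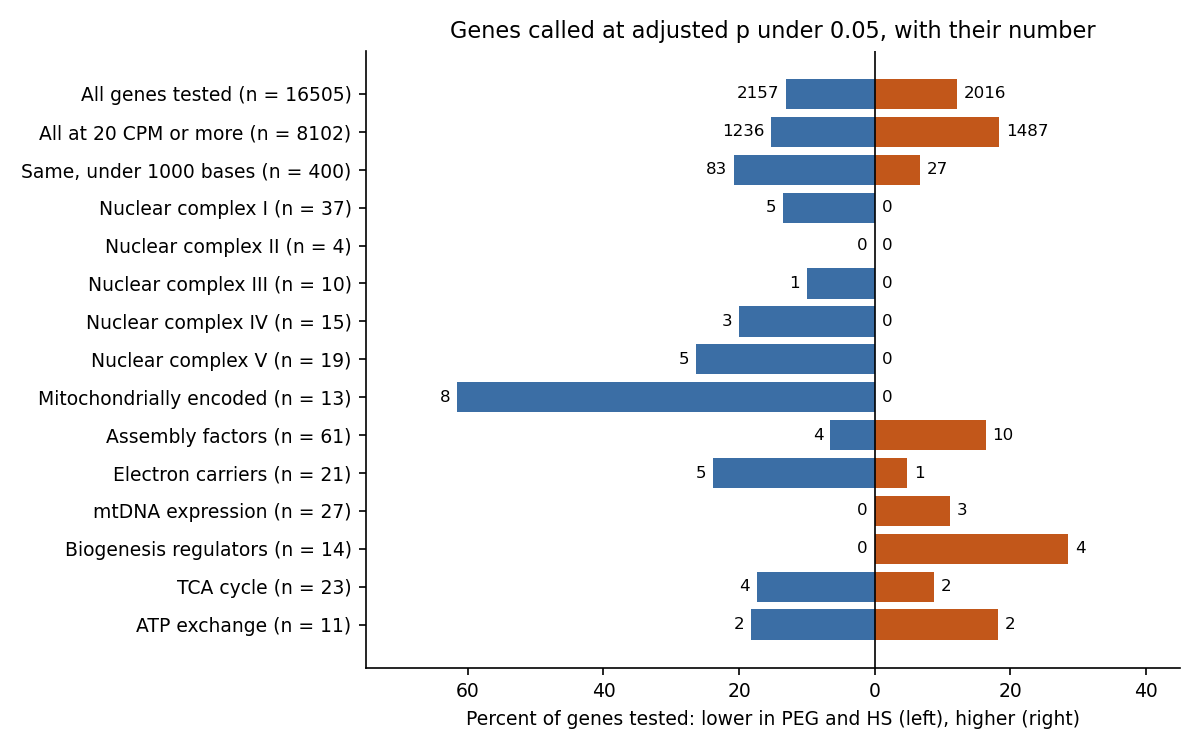
Percent of tested genes called lower (blue, left) or higher (orange, right) in PEG and HS, with the number called at the end of each bar, for all genes, for abundant genes, for the subunits by complex and for the related lists. The bars of the subunits point left only, with 8 of 13 for the mitochondrially encoded ones. Of the assembly factors, 10 point right and 4 left.

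Members are mostly abundant, short transcripts, so genes of that kind give a closer background. Among the 400 tested genes with at least 20 CPM and a transcript under 1000 bases, 27 rose and 83 fell (20.8% lower), 65.5% had a log2 fold change below 0, and the median was -0.04. Of the 50 tested nuclear members under 1000 bases, 8 fell (16.0%) and 41 (82.0%) had a log2 fold change below 0, with a median of -0.06. The 50 were chosen by length alone, so some lie under 20 CPM, and the 400 include the members that pass both limits. After a correction of every library for trends in GC content and length, 4970 genes were called instead of 4173. The share of lower genes among all calls went from 51.7% to 39.4%. Under that correction 17 nuclear and 5 mitochondrially encoded members were lower and 1, SDHA, was higher.

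In 36 of the 98 tested members (36.7%) all PEG and HS libraries lay below all E8 control libraries, and in 2, SDHA and COX5A, all lay above. Over all genes tested the shares were 19.8% and 19.5%, and 39.3% of genes did not overlap between media. Of the 22 members called, 11 kept the call under every other test, scaling, filter and left-out library tried. These 11 were MT-ND1, MT-ND3, MT-ND5, MT-ND6, MT-CO2, NDUFV2, UQCRC1, COX4I1, COX7C, COX6B2 and ATP5F1E. The count of lower nuclear members was 7 without PEG and HS library 1, 8 without PEG and HS library 2 and 6 without E8 control library 2. The count of lower mitochondrially encoded members was 5 without PEG and HS library 3, 5 without E8 control library 1 and 5 without E8 control library 3.

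Summed over genes, nuclear subunits reached 7705, 7709 and 7941 CPM with PEG and HS against 7949, 8290.2 and 7977 CPM in E8 alone. All PEG and HS sums lay below all E8 control sums, a log2 ratio of -0.05. The 13 mitochondrially encoded genes together reached 49959.9, 49772 and 45375 CPM with PEG and HS against 51610.4, 50499 and 50377 CPM in E8 alone. Here too the media did not overlap (log2 ratio -0.07), but PEG and HS library 3 was far below the others, and without it the log2 ratio was -0.03. As shares of all counts, without the TMM factors, the media overlapped. These shares were 5.024%, 4.997% and 4.537% in PEG and HS against 5.159%, 5.019% and 5.024% in E8 control. For both sums the exact two-sided permutation p was 0.1, the smallest that 3 libraries against 3 allow. The ratio of the mitochondrial to the nuclear sum was 6.48, 6.46 and 5.71 with PEG and HS against 6.49, 6.09 and 6.32 in E8 alone. These ratios overlapped between media, at 6.22 ± 0.437 (SD, n = 3) in PEG and HS and 6.30 ± 0.201 (SD, n = 3) in E8 control, with an exact two-sided permutation p of 0.8.

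**Figure D2:**
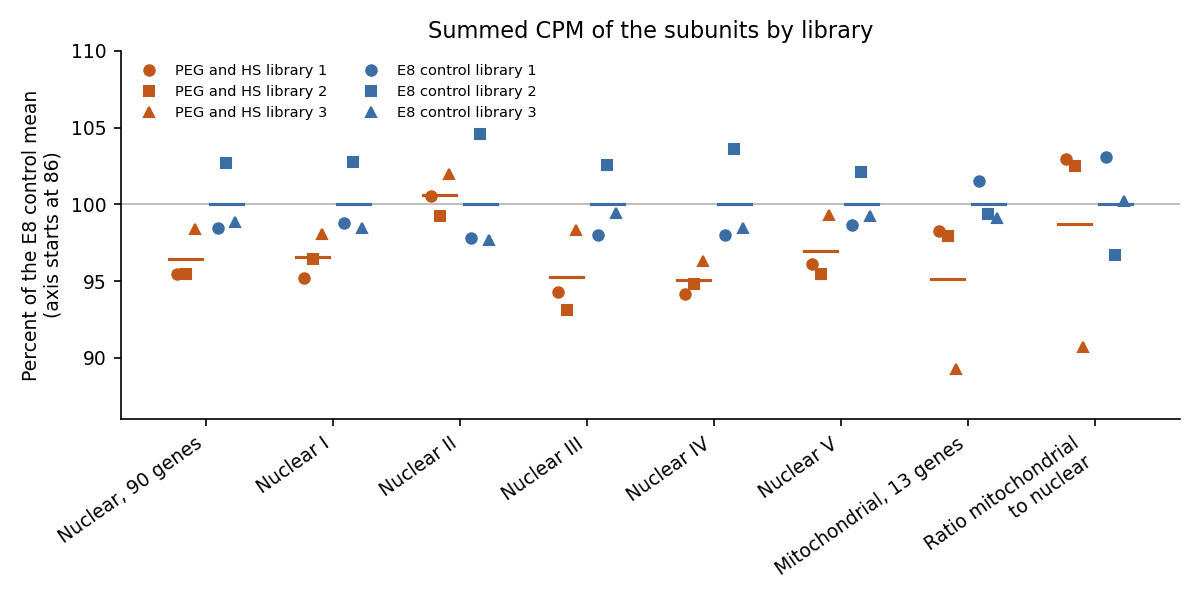
Summed CPM of the subunits in each library as percent of the E8 control mean, with a line at the mean of each medium, for all nuclear genes, for each complex, for the mitochondrially encoded genes and for their ratio. The nuclear and the mitochondrial sums of PEG and HS lie below all E8 control sums, the ratios overlap, and PEG and HS library 3 (orange triangle) is lowest in the mitochondrial sum.

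By complex, the nuclear sums of complexes I and IV lay below E8 control in all 3 PEG and HS libraries (log2 ratios -0.05 and -0.07, exact permutation p = 0.1 for each). Those of complexes III and V overlapped (log2 ratios -0.07 and -0.04, exact permutation p = 0.2 and 0.3). Complex II differed least, with 292 ± 3.91 CPM (SD, n = 3) with PEG and HS against 290 ± 11.4 CPM without (log2 ratio 0.01, exact permutation p = 0.8). Of the mitochondrial sums, those of complex III and complex IV did not overlap (log2 ratios -0.10 and -0.10, exact permutation p = 0.1 for each), and those of complexes I and V did. These tests cover 12 sums and ratios, none of which can pass an adjustment at this number of libraries.

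The mitochondrial genome supplied the largest counts among the members. MT-ND1 (ENSG00000198888, GRCh38 mitochondrial genome, 3307 to 4262, plus strand), a core membrane subunit of complex I, differed most among them, at 2255, 2273 and 2178 CPM with PEG and HS against 2588, 2604 and 2572 CPM in E8 alone. The 3 PEG and HS libraries lay close together and well below the E8 control libraries (log2 fold change -0.21, SE 0.024, adjusted p = 8.7e-06). In all other settings its log2 fold change stayed between -0.22 and -0.19. MT-ND6, the one subunit encoded on the other strand, was at 713, 695 and 646 CPM with PEG and HS against 764, 731 and 764 CPM in E8 alone. Its media did not overlap (log2 fold change -0.14, SE 0.034, adjusted p = 0.0072). Nor did those of the complex I subunits MT-ND5 (log2 fold change -0.14, SE 0.031, adjusted p = 0.00408) and MT-ND3 (log2 fold change -0.11, SE 0.027, adjusted p = 0.00554).

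Of the other complex I genes of the mitochondrial genome, 3 were not called. MT-ND4 (ENSG00000198886, GRCh38 mitochondrial genome, 10760 to 12137, plus strand) was at 8799, 8513 and 7882 CPM with PEG and HS against 8337, 7971 and 8091 CPM in E8 alone. PEG and HS libraries 1 and 2 were above all E8 control libraries and library 3 below them (log2 fold change 0.05, SE 0.033, adjusted p = 0.355), and without library 3 the gene was called higher (log2 fold change 0.09, adjusted p = 0.014). MT-ND4L, read from the same bicistronic transcript, had a log2 fold change of 0.04 (adjusted p = 0.53), also with overlap. MT-ND2 had a log2 fold change of -0.10 and missed the threshold (adjusted p = 0.0572). It was below 0 in all 18 other settings and called lower in 8 of them.

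MT-CO2, which holds the copper site that takes electrons from cytochrome c, was at 4196, 4112 and 3841 CPM with PEG and HS against 4464, 4465 and 4308 CPM in E8 alone. Its media did not overlap (log2 fold change -0.12, SE 0.03, adjusted p = 0.0074). MT-CO3 fell too (log2 fold change -0.09, adjusted p = 0.0466), and MT-CO1, the catalytic subunit, had a log2 fold change of -0.10 with overlap (adjusted p = 0.0881). MT-CYB, cytochrome b of complex III, fell by 0.10 on the log2 scale (adjusted p = 0.0445). In complex V, MT-ATP8 was lower (log2 fold change -0.10, adjusted p = 0.0405) although PEG and HS library 1 lay within the E8 control range, and MT-ATP6 had a log2 fold change of -0.00 (SE 0.035, adjusted p = 0.982). The calls of MT-CO3, MT-CYB and MT-ATP8 were lost when single libraries were left out. Without PEG and HS library 3 their adjusted p was 0.134, 0.138 and 0.145, and without E8 control library 1 it was 0.131, 0.0744 and 0.156. Without E8 control library 3 it was 0.0719, 0.100 and 0.0871. MT-CO3 was also lost without E8 control library 2 (adjusted p = 0.101), MT-CYB without PEG and HS library 1 (0.0908) and E8 control library 2 (0.12), and MT-ATP8 without PEG and HS library 2 (0.114).

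**Figure D3:**
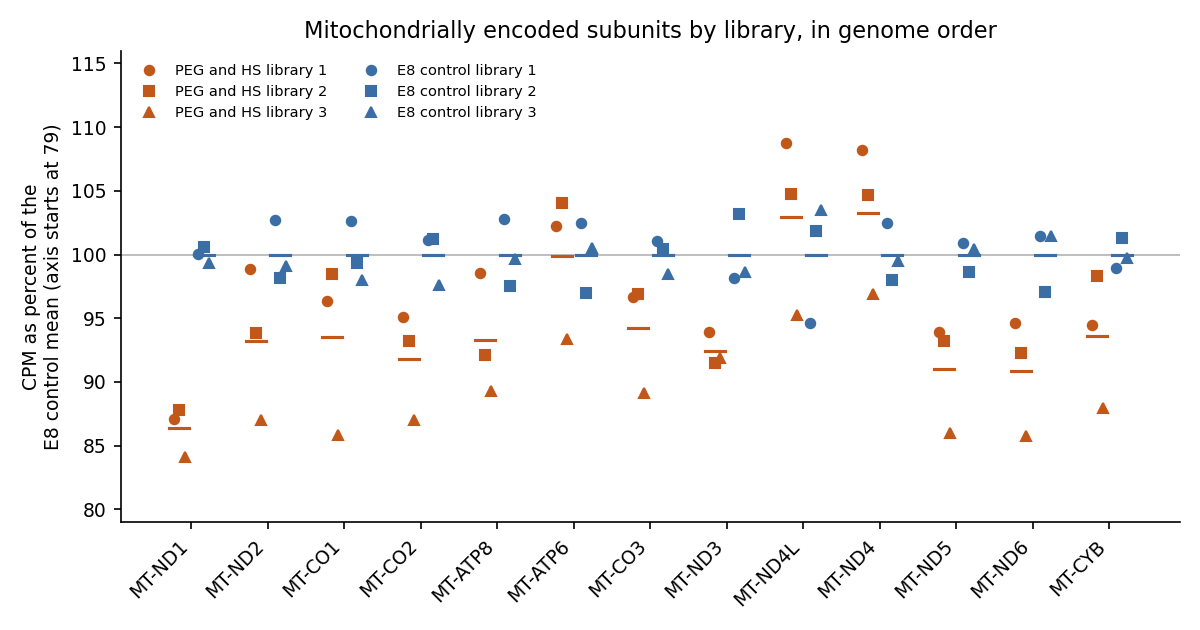
CPM of the 13 mitochondrially encoded subunits in each library as percent of that gene's E8 control mean, ordered along the genome, with a line at the mean of each medium. All PEG and HS points of MT-ND1 lie below 90 percent, while those of MT-ND4, MT-ND4L and MT-ATP6 spread around the E8 control points, and PEG and HS library 3 (orange triangle) is the lowest of its medium in 12 of the 13 genes.

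As shares of the 13 genes' summed CPM, which do not depend on the mitochondrial total of a library, MT-ND1 took 4.63% ± 0.153 (SD, n = 3) in PEG and HS and 5.09% ± 0.0718 in E8 control. MT-CO2, MT-ND5 and MT-ND6 also had a smaller share in every PEG and HS library. MT-ND4 took 17.4% ± 0.254 in PEG and HS and 16.0% ± 0.192 in E8 control, and MT-ND4L and MT-ATP6 likewise had a larger share in every PEG and HS library. These 7 genes each had an exact two-sided permutation p of 0.1, the smallest possible, over 13 genes compared. The other 6 overlapped, and as shares sum to a fixed total a smaller share of one gene goes with a larger share of others. PEG and HS library 3 lay between the other libraries of its medium in the share of MT-ND4, and between them and E8 control in that of MT-ND1.

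The pairs MT-ATP8 and MT-ATP6 and MT-ND4L and MT-ND4 overlap in sequence, which is shown because reads there can belong to both genes. MT-ATP8 and MT-ATP6 share 46 bases, chrM:8527-8572 of GRCh38 on the plus strand, which is 22.2% of MT-ATP8 and 6.75% of MT-ATP6. MT-ND4L and MT-ND4 share 7 bases, chrM:10760-10766. Capitals mark the start codon of the second gene and the stop codon of the first.
MT-ATP8 and MT-ATP6: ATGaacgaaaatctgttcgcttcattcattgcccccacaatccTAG
MT-ND4L and MT-ND4: ATGcTAA
How the authors counted reads in such stretches is not given in the sources used here. The same holds for reads that also match nuclear copies of mitochondrial DNA, since the 13 genes share 3.5% (MT-ND3) to 66.7% (MT-CO1) of their 31-base words with other annotated transcripts. When counts of genes that share at least 50% of their words were added, 10 of the 13 were lower. The libraries were made from polyadenylated RNA, so the levels also depend on poly(A) tails, which are short on mitochondrial transcripts.

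In complex I, 5 of 37 nuclear members fell (13.5%, near the 13.1% of all genes) and 0 rose. Of the 37, 29 (78.4%) had a log2 fold change below 0, against 49.1% over all genes. NDUFA11 (ENSG00000174886, GRCh38 chromosome 19, 5891276 to 5904006, minus strand), a membrane arm accessory subunit, fell most, at 62.95, 62.4 and 63.5 CPM with PEG and HS against 67.9, 74.6 and 67.2 CPM in E8 alone. The media did not overlap (log2 fold change -0.15, SE 0.041, adjusted p = 0.0126), although without E8 control library 2, the highest, the adjusted p was 0.0638. NDUFV2 (ENSG00000178127, GRCh38 chromosome 18, 9102630 to 9134345, plus strand), an iron-sulfur subunit of the NADH-oxidizing module, was at 78.3, 77.4 and 80.05 CPM with PEG and HS against 85.03, 87.3 and 86.3 CPM in E8 alone. Both media were tight and separate (log2 fold change -0.13, SE 0.031, adjusted p = 0.00503), and the call held with each library left out. The others were NDUFA13 (log2 fold change -0.14), NDUFA2 (-0.13) and NDUFS6 (-0.12), which fell without overlap but lost the call when any of several single libraries was left out. NDUFA13 lost it without PEG and HS library 1 or 2 or E8 control library 2 (adjusted p up to 0.101). NDUFS6 lost it without the same 3 libraries or E8 control library 3 (up to 0.154), and NDUFA2 when any library other than E8 control library 3 was left out (up to 0.157).

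Beside NDUFV2, itself a core subunit, the complex I core subunits NDUFS1, NDUFS3, NDUFS7, NDUFS8 and NDUFV1 had log2 fold changes between -0.04 and -0.01 and were not called. NDUFS1, the largest core subunit, was at 117, 117 and 119 CPM with PEG and HS against 124, 121 and 119 CPM in E8 alone. Its media did not overlap by a narrow margin (adjusted p = 0.359). Of the 37, the readthrough NDUFC2-KCTD14 had the largest positive value, at 1.72, 3.82 and 2.69 CPM with PEG and HS against 1.0, 2.25 and 2.02 CPM in E8 alone. These low levels overlapped (log2 fold change 0.61, SE 0.28, adjusted p = 0.14), and the readthrough shares 87.4% of its words with other genes.

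Complex II, succinate dehydrogenase, is the one complex that also works in the TCA cycle, and 0 of its 4 members were called by edgeR or DESeq2 (2 at an unadjusted p under 0.05). Its catalytic flavoprotein SDHA (ENSG00000073578, GRCh38 chromosome 5, 218303 to 257082, plus strand) was at 83.1, 84.7 and 82.5 CPM with PEG and HS against 76.9, 81.9 and 78.6 CPM in E8 alone. All 3 PEG and HS libraries were above E8 control, a difference that did not pass the test (log2 fold change 0.07, SE 0.033, adjusted p = 0.118). The membrane anchor SDHC went the other way, at 90.4, 85.5 and 91.1 CPM with PEG and HS against 92.2, 100.3 and 93.8 CPM in E8 alone. It did not overlap between media either (log2 fold change -0.10, SE 0.038, adjusted p = 0.0665). SDHB, the iron-sulfur subunit, and SDHD, the other anchor, overlapped (log2 fold changes 0.04 and 0.05, adjusted p = 0.639 and 0.294). SDHA shares 31.7% of its words with other genes, and it was called higher in 2 of 18 other settings, both with the GC and length correction (log2 fold change 0.11, adjusted p = 0.00935 without a replicate block). SDHC was called lower in 4 of the 18 (adjusted p = 0.0334 to 0.0481).

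In complex III, 9 of 10 nuclear members had a log2 fold change below 0 and 1 fell (10.0%, beside 13.1% of all genes). This was UQCRC1 (ENSG00000010256, GRCh38 chromosome 3, 48599002 to 48610976, minus strand), a core subunit on the matrix side, at 82.5, 85.3 and 84.1 CPM with PEG and HS against 94.7, 96.03 and 88.8 CPM in E8 alone. The media did not overlap (log2 fold change -0.15, SE 0.035, adjusted p = 0.00591). The call held in every setting. Its partner UQCRC2 had a log2 fold change of -0.03 (adjusted p = 0.472). The electron-carrying subunits CYC1, cytochrome c1, and UQCRFS1, the Rieske protein, had log2 fold changes of -0.07 and -0.05 (adjusted p = 0.195 and 0.251). UQCRQ alone was above 0 (log2 fold change 0.06, adjusted p = 0.474).

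**Figure D4:**
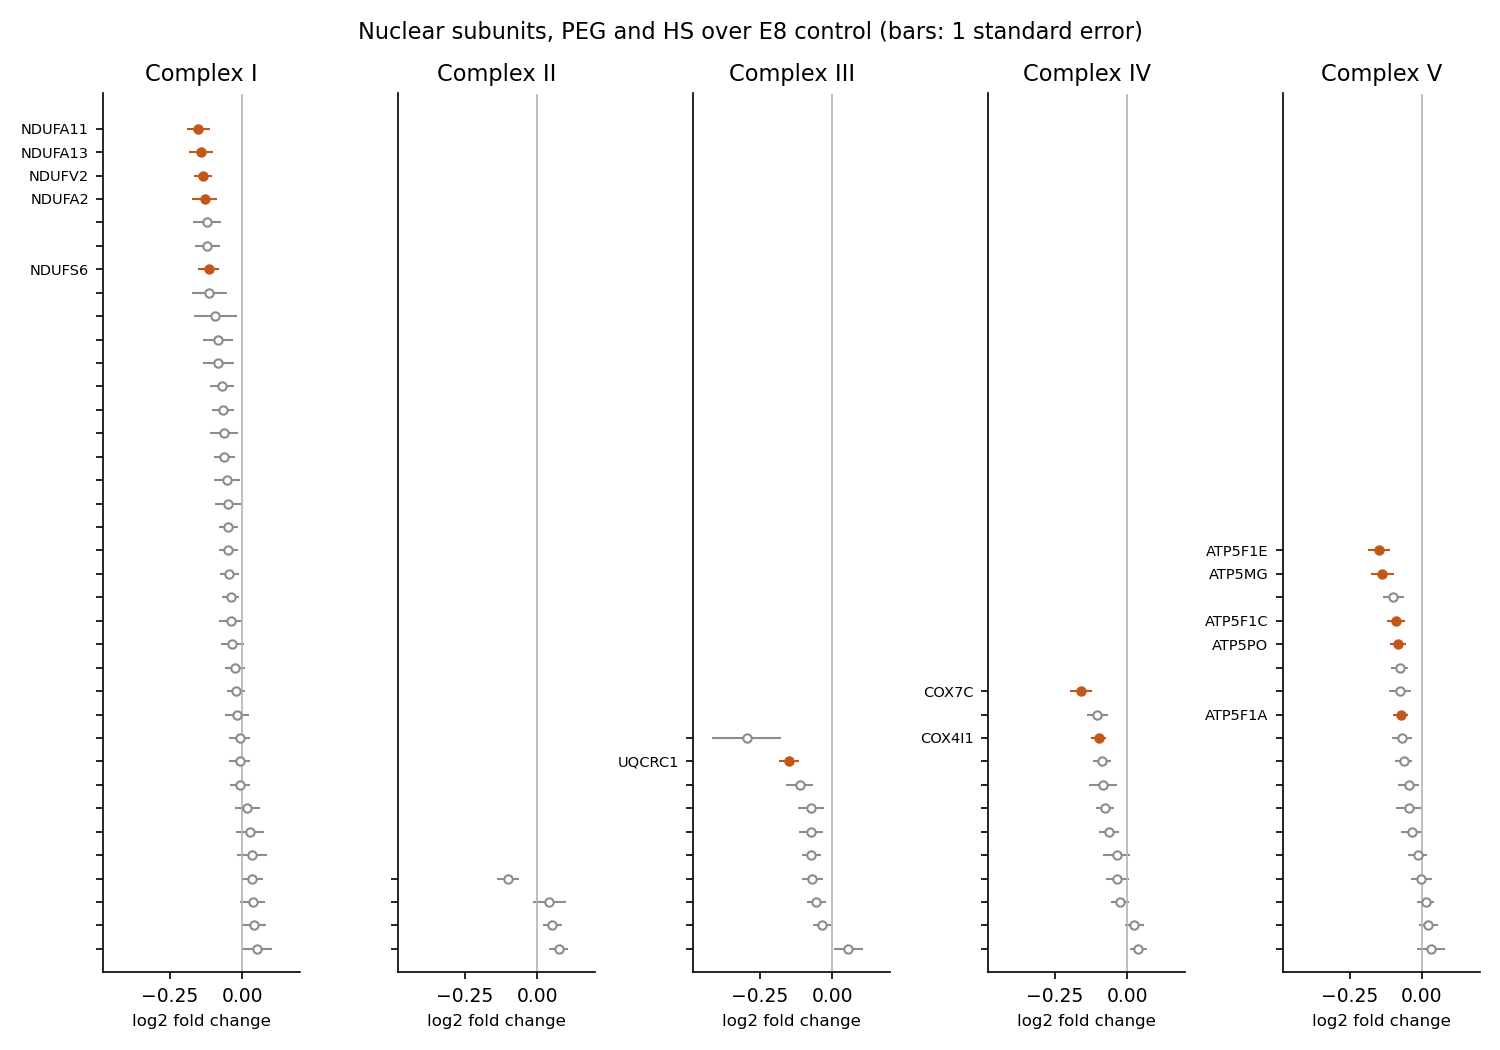
Log2 fold change (PEG and HS over E8 control) with 1 standard error for 80 nuclear subunits by complex, filled and named where called lower. Readthrough genes and members with a standard error over 0.2 are left out, and most points lie between -0.15 and 0.05, left of 0 in every complex but II.

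In complex IV, 3 of the 15 tested nuclear members fell and 0 rose. This share lay above the 13.1% of all genes that fell. It was near the 20.8% of those at 20 CPM or more with a transcript under 1000 bases. COX7C (ENSG00000127184, GRCh38 chromosome 5, 86617928 to 86620962, plus strand), a small membrane subunit, was at 212, 199.7 and 219 CPM with PEG and HS against 225, 246 and 234 CPM in E8 alone. The media were close but did not overlap (log2 fold change -0.16, SE 0.038, adjusted p = 0.00564). COX4I1 (ENSG00000131143, GRCh38 chromosome 16, 85798633 to 85807068, plus strand), the usual form of the largest nuclear subunit and a site of regulation by ATP, was at 209, 205 and 209 CPM with PEG and HS against 221, 225 and 219.6 CPM in E8 alone. It fell too, with less spread between libraries (log2 fold change -0.10, SE 0.026, adjusted p = 0.0131), and both calls held with each library left out. COX5A, which binds COX4, lay above E8 control in all PEG and HS libraries (log2 fold change 0.04, adjusted p = 0.365), whereas COX5B lay below in all (log2 fold change -0.06, adjusted p = 0.208). NDUFA4 was below E8 control in all 3 libraries and missed the threshold (log2 fold change -0.09, adjusted p = 0.0594).

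The third complex IV member, COX6B2, was the subunit that changed most of all 98. COX6B2 is the isoform of COX6B known from testis, and COX6B1 is the form of most tissues. It was at 1.01, 1.38 and 1.86 CPM with PEG and HS against 2.89, 3.82 and 2.88 CPM in E8 alone, from 34, 39 and 63 counts against 78, 124 and 104 counts. Every PEG and HS library was below every E8 control library (log2 fold change -1.17, SE 0.21, adjusted p = 0.000703), and over the other settings the log2 fold change lay between -1.43 and -0.97. COX6B1 was at 94.2, 106 and 102 CPM with PEG and HS against 103, 115 and 101 CPM in E8 alone. It overlapped between media (log2 fold change -0.08, SE 0.049, adjusted p = 0.25). COX6B2 made up 0.435% ± 0.121 (SD, n = 3) of the COX6B1 and COX6B2 level per kb in PEG and HS and 0.925% ± 0.0883 in E8 control. COX6B2 (ENSG00000160471, GRCh38 chromosome 19, 55349306 to 55354719, minus strand) overlaps ENSG00000267706 on the same strand and shares 32.0% of its words with other genes. That gene, at 0.119, 0.106 and 0.0295 CPM with PEG and HS against 0.482, 0.277 and 0.388 CPM in E8 alone, also fell (log2 fold change -2.13, SE 0.57, adjusted p = 0.0119), and the part of shared reads in the difference was not tested.

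The other tissue-specific isoforms were at the edge of detection. COX4I2 (lung), COX6A2 (heart and muscle), COX8C (testis) and ATP5MGL had 1 to 7 counts over all libraries and were not tested, and COX7B2 had 0. A count of 0 allows up to 3 counts, or 0.0829 to 0.111 CPM in a library. NDUFA4L2, a hypoxia-responsive relative of NDUFA4, had 18 counts in PEG and HS and 12 in E8 control, and COX7A1, the heart and muscle form of COX7A, had 22 and 22. Their log2 fold changes of 0.53 and 0.02 lay within their wide errors (SE 0.76 and 0.51). UQCRHL, an intronless copy of UQCRH, was at 4.54, 5.06 and 6.06 CPM with PEG and HS against 5.75, 7.20 and 6.24 CPM in E8 alone. The libraries of the media overlapped here (log2 fold change -0.30, SE 0.12, adjusted p = 0.0848), and it was called lower without PEG and HS library 3 (adjusted p = 0.0226).

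**Figure D5:**
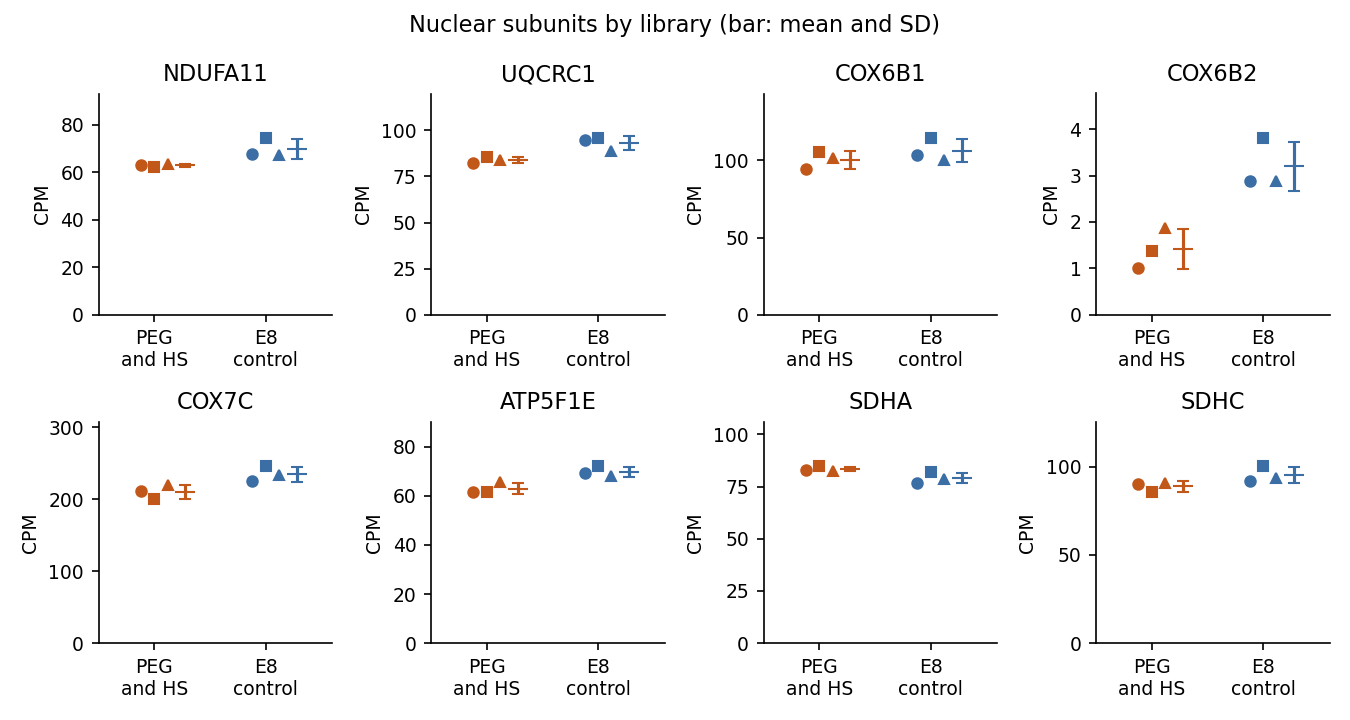
CPM of 8 nuclear subunits in each library from 0 upward (points), with the mean and SD of the 3 libraries of each medium beside them. COX6B2 differs by more than its spread at 1 to 4 CPM, while the abundant subunits differ by about 10% or less.

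In complex V, 5 of 19 tested nuclear members fell (26.3%) and 0 rose. Among all genes 13.1% fell, and 20.8% of those at 20 CPM or more with a transcript under 1000 bases. ATP5F1E (ENSG00000124172, GRCh38 chromosome 20, 59025475 to 59032345, minus strand), the epsilon subunit of the central stalk, was at 61.6, 61.6 and 65.4 CPM with PEG and HS against 69.3, 71.99 and 68.03 CPM in E8 alone. The media did not overlap (log2 fold change -0.15, SE 0.037, adjusted p = 0.00788). The call held with each library left out. ATP5MG, a membrane subunit, was at 100.4, 108 and 106 CPM with PEG and HS against 112, 122 and 111 CPM in E8 alone. The media did not overlap either (log2 fold change -0.14, SE 0.04, adjusted p = 0.0205), but it lost the call without PEG and HS library 1 (adjusted p = 0.113) or E8 control library 2 (0.102). The head subunit ATP5F1A (alpha), the stalk subunit ATP5F1C (gamma) and ATP5PO of the peripheral stalk fell by 0.07, 0.09 and 0.08 on the log2 scale. ATP5F1A lost the call without PEG and HS library 1 or 2 or E8 control library 2 or 3 (adjusted p up to 0.13), ATP5PO when any library other than PEG and HS library 3 was left out (up to 0.126) and ATP5F1C when any library was left out (up to 0.167).

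ATP5F1B, the catalytic beta subunit that pairs with alpha in the head, was at 712, 716 and 758 CPM with PEG and HS against 707, 740.2 and 718 CPM in E8 alone. It overlapped between media (log2 fold change 0.01, SE 0.029, adjusted p = 0.787). The genes of the c-ring, ATP5MC1, ATP5MC2 and ATP5MC3, encode the same mature protein. ATP5MC2 and ATP5MC3 lay below E8 control in all PEG and HS libraries (log2 fold changes -0.08 and -0.06, adjusted p = 0.0763 and 0.138), and ATP5MC1 overlapped (0.03, adjusted p = 0.707). ATP5IF1, the inhibitor of ATP hydrolysis, overlapped too (log2 fold change -0.05, adjusted p = 0.404).

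Levels between genes were compared as CPM per kb of the canonical transcript in E8 control. The mitochondrially encoded members ranged from 1434 CPM per kb (MT-ND6) to 8362 CPM per kb (MT-CO3), each above the highest nuclear member, ATP5F1B at 410 CPM per kb. The highest nuclear members of the other complexes were COX7C (373 CPM per kb), NDUFS5 (358 CPM per kb), UQCRH (294 CPM per kb) and SDHC (73.0 CPM per kb). This order depends on the transcript length used. By coding length COX7C was highest, at 1242 CPM per coding kb, since some canonical transcripts have long untranslated ends, such as UQCRB with 8459 bases and ATP5F1A with 5761.

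Nuclear subunit genes are known targets of NRF1, of the ETS factor GABP, of YY1 and, in some cases, of CREB, so the letters of their sites were searched on both strands of RefSeq promoter windows (GRCh38.p14, 250 bases before to 50 after the start). Windows were matched for 69 of the 88 nuclear members that are no readthrough. The NRF1 letters, GCGCA and GCGC with any base between them, stood in the windows of 17 of the 69 (24.6%) and of 6.98% of all 27305 genes. The ETS letters CCGGAAGT stood in 17.4% against 4.95%, the YY1 letters AAGATGGC in 17.4% against 3.52%, and the CRE letters TGACGTCA in 7.25% against 2.25%. The 27305 genes were not matched to the members in GC content or level, and the part of these in the differences was not tested. Among the 14 lower nuclear members, 4 held the NRF1, 2 the ETS, 2 the YY1 and 0 the CRE letters. The 250 bases upstream of 3 members are shown to compare windows that hold such letters with one that does not. NDUFB4 (chr3:120596086-120596335, plus strand) holds the NRF1 letters at 2 places, and UQCR11 (chr19:1605463-1605712, minus strand) holds them at 2 places beside the ETS letters. COX7C (chr5:86617691-86617940, plus strand), which fell, holds none of the 4. Capitals mark the matches, with the reverse complement of a motif counted as a match.
NDUFB4: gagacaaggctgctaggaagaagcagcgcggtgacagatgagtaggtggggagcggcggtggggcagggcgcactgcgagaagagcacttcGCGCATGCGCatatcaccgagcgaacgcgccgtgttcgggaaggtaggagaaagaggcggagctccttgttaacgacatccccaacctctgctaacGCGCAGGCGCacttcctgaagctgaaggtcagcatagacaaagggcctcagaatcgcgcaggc
UQCR11: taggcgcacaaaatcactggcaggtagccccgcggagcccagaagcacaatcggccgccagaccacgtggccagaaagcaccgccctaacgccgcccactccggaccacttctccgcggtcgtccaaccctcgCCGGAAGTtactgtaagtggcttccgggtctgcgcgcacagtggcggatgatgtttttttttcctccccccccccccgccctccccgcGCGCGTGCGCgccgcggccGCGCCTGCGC
COX7C: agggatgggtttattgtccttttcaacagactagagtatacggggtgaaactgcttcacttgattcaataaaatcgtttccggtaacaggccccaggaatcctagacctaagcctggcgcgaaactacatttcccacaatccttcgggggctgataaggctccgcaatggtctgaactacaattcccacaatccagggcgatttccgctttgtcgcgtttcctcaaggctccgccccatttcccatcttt
NDUFB4 (log2 fold change -0.06, adjusted p = 0.388) and UQCR11 (-0.07, adjusted p = 0.286) were not called. A match describes these letters alone and shows no binding.

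Factors that assemble the complexes, which are not part of them, had more members higher than lower. Of 61 assembly factors tested, 10 rose (16.4%) and 4 fell (6.56%), beside 12.2% and 13.1% of all genes. Among all tested genes at 20 CPM or more, these shares were 18.4% and 15.3%. The median log2 fold change of the factors was 0.04. DESeq2 gave 5 higher and 3 lower. Their summed level was 1754 to 1777 CPM in PEG and HS and 1713 to 1726 CPM in E8 control, without overlap. The number that rose was 4 without PEG and HS library 1, 6 without E8 control library 3 and 7 to 10 without one of the others. The number that fell was 2 without PEG and HS library 1, PEG and HS library 3 or E8 control library 2, 1 without E8 control library 1, and 3 without one of the others. In complex IV assembly COX20, the chaperone of MT-CO2, rose by 0.23 on the log2 scale (SE 0.054, adjusted p = 0.00602). In complex II assembly SDHAF1 rose (log2 fold change 0.28, adjusted p = 0.0109; with DESeq2 0.0577), while in complex V assembly ATPAF1, which binds the beta subunit, fell (log2 fold change -0.16, adjusted p = 0.002). BCS1L, which inserts the Rieske protein in complex III, rose from 18.0 to 21.1 CPM (adjusted p = 0.00953; 0.0559 without PEG and HS library 1). In complex I assembly NDUFAF3 and NDUFAF4 rose (log2 fold change 0.23 and 0.18, adjusted p = 0.0138 and 0.0431) and NDUFAF7, a mitochondrial methyltransferase, fell (-0.18, adjusted p = 0.0207). NDUFAF3 lost the call without PEG and HS library 3 (adjusted p = 0.0516) or E8 control library 3 (0.0717), NDUFAF4 without PEG and HS library 1 or 3 or E8 control library 1 or 3 (up to 0.169), and NDUFAF7 without PEG and HS library 3 or E8 control library 1 or 3 (up to 0.0937).

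Of 21 tested genes of ubiquinone, cytochrome c and other electron carriers, 1 rose (4.76%) and 5 fell (23.8%), beside 12.2% and 13.1% of all genes. NDUFAB1, the mitochondrial acyl carrier protein that also sits in complex I, fell to 58.5 CPM from 67.1 CPM (log2 fold change -0.20, SE 0.034, adjusted p = 0.000455). PDSS2, which makes the ubiquinone tail, rose (log2 fold change 0.18, adjusted p = 0.0133; 0.0506 without E8 control library 2 and 0.0531 with DESeq2). The number that fell was 2 or 3 when any 1 library was left out and 2 with DESeq2. Of 27 tested genes that replicate, transcribe or process mitochondrial DNA and RNA, 3 rose (11.1%, near the 12.2% of all genes) and 0 fell with edgeR (11 and 0 at an unadjusted p under 0.05, 2 and 0 with DESeq2), among them TFB1M, which methylates the small ribosomal RNA (log2 fold change 0.23, adjusted p = 0.00709). The number that rose was 1 without PEG and HS library 1 or without E8 control library 2. Of 14 regulators of mitochondrial biogenesis, 4 rose (28.6%) and 0 fell with edgeR (5 and 0 at an unadjusted p under 0.05, 4 and 0 with DESeq2), GABPB1, a subunit of the factor GABP, from 37.8 to 44.3 CPM (log2 fold change 0.23, adjusted p = 0.000868) and NFE2L2 by 0.18 on the log2 scale (adjusted p = 0.00454).

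Among 23 genes of the TCA cycle and pyruvate entry, 2 rose (8.70%) and 4 fell (17.4%), again beside 12.2% and 13.1% over all genes. PDK2 and PDK1, kinases that switch pyruvate dehydrogenase off, went opposite ways (log2 fold change -0.48, adjusted p = 0.00038, and 0.20, adjusted p = 0.00302). The number that fell was 2 without PEG and HS library 1, and the number that rose was 1 without E8 control library 3. Of 11 genes of ATP exchange and export, 2 rose and 2 fell (18.2% each). SLC25A6 and SLC25A4, ADP/ATP carriers of the inner membrane, fell (log2 fold change -0.26, SE 0.032, adjusted p = 2.15e-05, and -0.23, SE 0.045, adjusted p = 0.00176). VDAC1, the main outer membrane pore, rose to 268 CPM from 234 CPM (log2 fold change 0.19, SE 0.03, adjusted p = 0.000226).

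Markers of other cell types moved between these media too. The shares below stand beside 12.2% higher and 13.1% lower over all genes tested. Besides the neuroectoderm list, 3 of 6 tested markers of trophectoderm and amnion fell (50.0%, summed level 7.65 to 7.83 against 15.9 to 17.4 CPM). For mesoderm 2 of 6 fell (33.3%, and 1 of 6 when any library other than PEG and HS library 1 was left out). For endoderm 0 of 4 were called by edgeR or DESeq2 (1 lower at an unadjusted p under 0.05). Without E8 control library 3, edgeR called 1 endoderm marker lower. Of 6 mesoderm markers 4, and of 6 endoderm markers 3, were under 1 CPM in both media, and no marker in these lists was at 0 in all libraries. Of 9 pluripotent markers 4 rose (44.4%) and 3 fell (33.3%). Their summed level was 8081 to 8248 CPM in PEG and HS and 7958 to 8070 CPM in E8 control. Among them NANOG rose most (log2 fold change 0.55, adjusted p = 6.55e-10) and SOX2 fell most (-0.59, adjusted p = 4.79e-10). Of 10 heat shock and stress genes 3 rose and 2 fell (summed level 731 to 763 against 684 to 698 CPM). The part of these shifts in the subunit levels was not tested.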

How the data were processed

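RNA of 6 NCRM-1 samples (3 PEG and HS, 3 E8 control) was sequenced from stranded mRNA libraries. After trimming with Trim Galore 0.6.7 and mapping to GRCh38 with STAR 2.6.1, the authors deposited raw counts per gene, 1 library per file. How reads were counted (tool, strand, reads matching several genes, annotation release) is not given in the sources used here. Without this, 33 nuclear members with an exon under an antisense gene and 9 that share at least 25% of their words with other genes are less certain. Of the 19977 identifiers, 19916 matched a symbol in GENCODE 44.

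Counts were normalized with TMM and tested with the quasi-likelihood test of edgeR 4.0.16 (R 4.3.3) without covariates, on 16505 genes with at least 10 counts in total. In simulated data, this test recovered 50% of 100 well-counted genes changed by 0.2 on the log2 scale. It recovered 92% of 100 changed by 0.5. That run had 15 false calls among 16390 genes, and a run without changes had 1. The median absolute log2 fold change of the members was 0.07, so a member that was not called can still differ. Sums of CPM over members and their ratio were compared with an exact two-sided permutation test over the libraries. Between libraries of one medium the chi-square per degree of freedom was 2.58 to 3.52, a spread beyond counting noise. Each library was treated as a replicate, although this value cannot show that the samples came from separate vessels. The depth of 26991279 to 36185138 counts resolves small differences in well-counted genes and not in those with few counts. Alternatives were DESeq2 1.42.0, limma-voom (limma 3.58.1), 4 other scalings, 2 other filters, a correction for GC content and length over 16473 genes, adding genes that share at least 50% of their 31-base words, the replicate number as a block, and leaving out each library. The counts of the further lists without each library and by DESeq2 were added after seeing the data.

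Named were all mitochondrially encoded members, the subunits of complex II, the isoform pairs and members under the filter. In each complex the nuclear member that changed most among those called was named too, and that with the highest level per kb. The rule also held for up to 2 called genes that changed most each way in each further list, but not all of these are given. Other members were named after their values were seen. The members and lists were chosen with earlier results of these data known. Of the list of mitochondrial DNA expression, 27 of 28 symbols were found. The levels of 1 member are not reported here by name.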

Additional observations from a re-analysis of the deposited data

How the results depend on the processing

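All 22 members called kept their direction under the 18 other settings, and 11 kept the call in each. The count of lower nuclear members, 14, was 6 to 16 with 1 library left out, and that of lower mitochondrially encoded members, 8, was 5 to 8. The mitochondrial count was 5 with library size alone as the scale, 5 with the GC and length correction and 8 to 10 in the other settings with all libraries. The nuclear count was 11 with library size alone, 20 with upper quartile factors, 20 with filterByExpr, 21 with genes that share words added and 12 to 17 in the others. The count of higher nuclear members, 0, was 1 with the GC and length correction (SDHA) and 0 to 1 with 1 library left out (NDUFC2-KCTD14 without PEG and HS library 1). The count of higher mitochondrially encoded members, 0, was 0 to 1 with 1 library left out (MT-ND4 without PEG and HS library 3). The causes of these differences were not tested. Where a library was left out, the number of samples was also smaller. The GC and length correction moved the median of all genes from 0.00 to 0.03 on the log2 scale and that of nuclear members from -0.05 to -0.03.

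Samples with the same replicate number did not deviate together across genes (Pearson's r 0.0233, 0.0270 and 0.0127), so the number was not taken to pair them. With the replicate number as a block, edgeR called 4444 genes against 4173 without it, 17 nuclear members were lower and 1 higher (NDUFC2-KCTD14), and 10 mitochondrially encoded members were lower. With the replicate block and the GC and length correction, 2 nuclear members were higher. Of the 6 libraries, 5 correlated best with the library of the other medium that has the same number, a hint from the data and not from the design. Over the named genes, 1253 values kept their side of the threshold, 77 lost the call, 32 gained it and 0 reversed.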
